A study of Mus musculus with 8 samples.

Results

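Glutathione transferases and targets of NRF2 were examined as a group of 10 genes out of 32285 measured in single epithelial cells of the mouse tongue. Most of them encode glutathione transferases (Gsta1, Gsta2, Gsta3 and Gsta4 of the alpha class, Gstm1 of the mu class, Gstp1 of the pi class and Gsto1 of the omega class). The others are Gclc, Txnrd1 and Nqo1. The genes were named by function, with earlier results of these data known. The cells in which they were read were chosen by measured values, namely cells whose UMIs (unique molecular identifiers, each 1 captured transcript) were at least 0.5% from Krt5, Krt14, Krt15, Krt13 and Krt6a and which held no UMI of the leukocyte gene Ptprc. This gave 12957 epithelial cells of 42550 barcodes, and all 10 genes passed the filter on low counts. Which comparison led to the choice of genes is not recorded, so every p-value below describes a gene within a fit across all genes and is not independent evidence about genes picked with results known.

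Single cells sorted for viability came from the tongue epithelium of mice 15 days after transgene induction, in 4 groups of 2 libraries. All groups carried Krt14-CreERT/LSL-rtTA, in which tamoxifen-activated Cre in Krt14-expressing basal cells permits doxycycline-dependent expression, and per the study's methods a tetON_H2B-GFP reporter. N mice carried no effector transgene, E mice tetON_E6-E7 (oncogenes of human papillomavirus), Y mice tetON_YAP1S127A (a YAP1 transgene that stays active because an inhibitory phosphorylation site is changed), and EY mice both. The animals were adult littermates balanced for age and sex between groups and all groups received tamoxifen in the tongue and a doxycycline diet. The Krt14 promoter limits induction to basal cells and their descendants. Transcripts of E6-E7 were not analysed here. Libraries are named by group and replicate, and the title of N2 carries 2 animal numbers, so it may pool animals.

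Glutathione transferases attach the tripeptide glutathione to electrophiles, and Gclc is the catalytic subunit of the enzyme that makes the first bond of glutathione. Many of these genes are classical targets of NRF2 (Nfe2l2), a transcription factor that KEAP1 holds at low levels until oxidants or electrophiles release it, after which it binds antioxidant response elements together with small MAF proteins, while BACH1 represses the same elements. In stratified epithelia the system is known for protecting keratinocytes against oxidants and reactive chemicals.

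Epithelial cells numbered from 170 (EY1) to 4055 (E1) per library and summed to 2454816 (EY1) to 55154619 UMIs (E1), so values of EY1 were the least precise. The 9 epithelial markers were detected in every library. Yap1 served as the check of the labels for YAP1S127A and held 31.5 to 46.1 CPM (a gene's UMIs relative to all UMIs of a library's epithelial cells, at the usual CPM scale) in the libraries of N and E and 174 to 447 in those of Y and EY. The labels for E6-E7 were not checked. Any pair of libraries shared 2 to 19 barcodes, and 0 to 5 among epithelial cells. Only 51 cells lay just inside the keratin limit (0.5 to 0.6%) and 47 just outside it (0.4 to 0.5%). Inside and then outside, in CPM not TMM-scaled, Gsta3 was at 35.1 and 35.9, Nqo1 at 22.3 and 24.0, and Gstp1 at 76.6 and 80.4. The other members differed more. Gsto1 was at 3338 and 734, Gstm1 at 152 and 71.9, Gsta4 at 1074 and 856, and Gclc at 51.1 and 39.4. Txnrd1 was at 101 and 80.4, Gsta1 at 0 and 12.0, and Gsta2 at 0 and 3.42. Levels are in CPM, scaled between libraries by the trimmed mean of M values (TMM) unless stated. A pair of values for a group gives replicate 1 first.

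Promoter sequence is shown for the entries of Gsta3 and Txnrd1 that held an antioxidant response element core, the DNA motif bound by NRF2. Gsta1 and Nqo1, whose levels were lower with YAP1S127A, are shown as examples of entries without it. RefSeq (GRCm38.p6) gave 11 promoter entries for 8 of the 10 members, each of 250 bases before and 50 after a transcription start. Capitals mark the match to the core TGACNNNGC, searched on both strands.
Gsta3 promoter, chr1:21240335-21240634, plus strand: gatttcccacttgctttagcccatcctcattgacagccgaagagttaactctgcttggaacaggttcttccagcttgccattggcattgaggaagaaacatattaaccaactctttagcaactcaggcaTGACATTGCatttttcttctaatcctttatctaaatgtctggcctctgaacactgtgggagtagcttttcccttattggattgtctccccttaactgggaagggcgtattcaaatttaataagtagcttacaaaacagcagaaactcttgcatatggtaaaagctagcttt
Txnrd1 second promoter entry, chr10:82858956-82859255, plus strand: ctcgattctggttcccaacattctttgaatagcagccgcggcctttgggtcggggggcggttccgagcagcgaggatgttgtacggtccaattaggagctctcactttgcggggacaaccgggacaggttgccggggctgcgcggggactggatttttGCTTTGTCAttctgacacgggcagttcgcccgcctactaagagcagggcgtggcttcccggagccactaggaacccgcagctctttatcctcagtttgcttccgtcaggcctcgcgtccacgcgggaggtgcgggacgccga
Gsta1 promoter, chr9:78230419-78230718, plus strand: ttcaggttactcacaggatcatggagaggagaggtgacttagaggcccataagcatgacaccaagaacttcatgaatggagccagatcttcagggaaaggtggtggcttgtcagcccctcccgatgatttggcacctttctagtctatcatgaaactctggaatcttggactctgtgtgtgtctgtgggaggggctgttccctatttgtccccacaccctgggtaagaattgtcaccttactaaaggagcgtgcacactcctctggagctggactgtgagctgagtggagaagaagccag
Nqo1 promoter, chr8:107403156-107403455, minus strand: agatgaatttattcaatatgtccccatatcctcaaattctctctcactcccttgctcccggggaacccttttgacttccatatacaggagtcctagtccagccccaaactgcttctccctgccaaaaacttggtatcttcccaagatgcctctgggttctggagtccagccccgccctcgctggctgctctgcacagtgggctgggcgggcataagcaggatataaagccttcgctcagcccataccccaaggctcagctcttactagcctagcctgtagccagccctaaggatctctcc
The core lay 121 to 113 bases before the start of Gsta3 and, on the opposite strand, 92 to 84 bases before that of Txnrd1. Among all 32851 promoter entries, 12.4% held this core. The AP-1 motif TGANTCA, held by 7.81% of all entries, was matched once in a member, in Gstp1, 74 to 68 bases before the start. The TEAD motif GGAATG, through which YAP acts on DNA and which 14.7% of entries held, was matched in no member entry. The core TGACNNNGC was also absent from the entries of Gsta2, Gstm1, Gstp1 and Gsto1 and from the remaining entries of Txnrd1. In Gstp1 the AP-1 match continues as TGAGTCAGC, which has G in place of the C of this core. Such a form of the antioxidant response element was not searched, so Gstp1 is not read as lacking the element. Sequence more than 250 bases before a start was not searched. These matches describe letters in a window and no binding was measured here.

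Epithelial levels of the alpha class moved in opposite directions between its members. Gsta3, an alpha-class transferase, rose with YAP1S127A, whereas Gsta1 fell. Gsta2 did not pass the test and Gsta4, a form specialised for the lipid peroxidation product 4-hydroxynonenal, differed little between groups. Gsta1, Gsta2, Gsta4 and Gclc lie in 1 stretch of chromosome 9, with Gclc at chr9:77754535-77794485, Gsta4 at chr9:78182774-78209349, Gsta1 at chr9:78230656-78242684 and Gsta2 at chr9:78331018-78355788, while Gsta3 lies apart at chr1:21240589-21265661 (GRCm38). The remaining members lie at chr3:108012255-108017973 (Gstm1), chr19:4035407-4037985 (Gstp1), chr19:47854970-47864790 (Gsto1), chr10:82833951-82897712 (Txnrd1) and chr8:107388225-107403206 (Nqo1) of the same build.

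Gsta3 was measured at 17.3 and 14.7 CPM for N, 8.62 and 8.29 for E, 49.97 and 96.4 for Y, and 51.6 and 26.9 for EY. All 4 libraries with YAP1S127A lay above all 4 without it. Y2, with the highest Yap1 level, was also the highest for Gsta3, but a relation between the levels of these genes was not tested. In an additive model of both transgenes the YAP effect was 2.18 on the log2 scale (SE 0.26, edgeR quasi-likelihood test, adjusted p = 0.00385), a 4.53-fold difference. Against N alone, the log2 difference was 2.19 in Y (SE 0.38, adjusted p = 0.0692) and 1.24 in EY (SE 0.39, adjusted p = 0.0597), neither past the threshold. The levels in E were below those in N in both libraries, with an E6-E7 effect of -0.93 (SE 0.25, adjusted p = 0.287). By group mean the order was Y, EY, N and E, in which Y and EY overlapped while EY lay above N and N above E.

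Gsta1 was measured at 13.2 and 3.45 CPM for N, 14.2 and 5.58 for E, 3.14 and 1.56 for Y, and 1.22 and 0.879 for EY, where EY1 rests on 3 UMIs. Every library with YAP1S127A lay below every library without it, although Y1 was only just below N2. The YAP effect was -2.49 (SE 0.57, adjusted p = 0.0361) and EY against N gave -3.21 (SE 0.85, adjusted p = 0.0403). In the N and E groups the library with more epithelial cells (3447 in N1 and 4055 in E1 against 415 in N2 and 553 in E2) held the higher level. Reads of Gsta1 are hard to assign, since 87.2% of the 50-base words in the last 400 bases of its transcript also occur in another gene, foremost Gm3776. Gm3776 itself was measured at 0.312 to 6.22 CPM and had a YAP effect of -2.60 (edgeR adjusted p = 0.0451).

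Gsta2 had levels of 22.1 and 7.62 CPM for N, 25.5 and 10.5 for E, 9.58 and 2.72 for Y, and 8.94 and 0.993 for EY. All neighbouring groups overlapped in the order E, N, Y and EY. The YAP effect was -1.77 (SE 0.73, adjusted p = 0.139), and 55.7% of its 3' words were shared with other genes, so its counts are also uncertain. Gsta4 had levels of 544 to 672 CPM in N and E, 683 and 646 for Y and 785 and 767 for EY. Both EY libraries stood above all others, but the EY against N difference of 0.34 (SE 0.15, adjusted p = 0.140) did not pass the threshold.

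**Figure D1:**
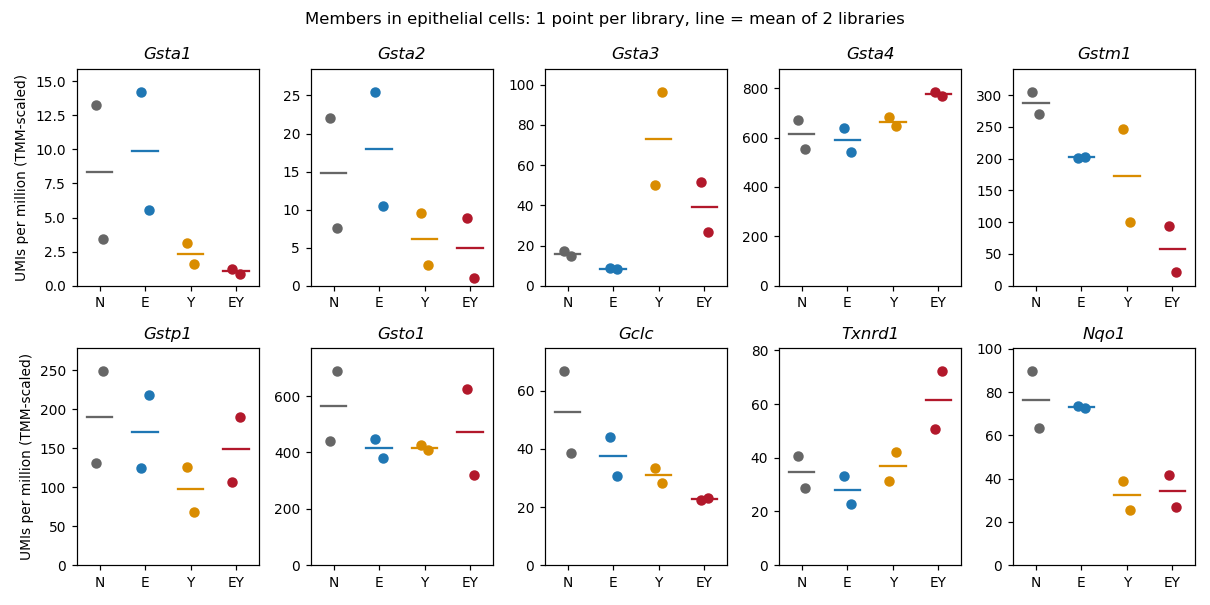
Level of each of the 10 genes in epithelial cells (vertical axis, TMM-scaled CPM, starting at 0), with 1 point per library and a line at the mean of the 2 libraries of groups N, E, Y and EY. For Gsta3 the 4 libraries of Y and EY sit above all others, and for Nqo1 and Gsta1 they sit below all others.

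Among the other classes of transferase, Gstm1 was lowest in EY, and Gstp1 and Gsto1 showed no call in any comparison. Gstm1, a mu-class enzyme, was measured at 305 and 270 CPM for N, 201 and 203 for E, 246 and 100 for Y, and 94.3 and 21.0 for EY. Both EY libraries were below all others, but the pair differed between themselves, and Y1 stayed within the range of N and E. EY against N gave -2.39 (SE 0.68, adjusted p = 0.0482), and the YAP effect of -1.29 (SE 0.48, adjusted p = 0.114) was not called. The share of 3' words that Gstm1 has in common with other genes was 24.1%, foremost with Gstm3, which was at 0 to 0.381 CPM here.

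Gstp1, a pi-class enzyme, was measured at 131 and 249 CPM for N, 125 and 218 for E, 126 and 68.6 for Y, and 107 and 190 for EY. The 2 libraries of a group differed as much as the groups did, and all neighbouring groups overlapped. Its YAP effect was -0.58 (SE 0.34, adjusted p = 0.264), and 78.3% of its 3' words recur in Gstp2. Gsto1, an omega-class enzyme with thioltransferase activity, was measured at 441 and 688 CPM for N, 447 and 382 for E, 427 and 407 for Y, and 624 and 320 for EY. In N2 a single cell held 1660 Gsto1 UMIs, and the top 1% of N2 cells held 39.9% of them. Without cells rich in the gland markers Wfdc18, Msln and Psca the level in N2 was 402 CPM (not TMM-scaled), and the EY against N difference, -0.26 (SE 0.33, adjusted p = 0.581) over all epithelial cells, became 0.09.

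Members outside the transferase families did not move together. Gclc and Nqo1 fell with YAP1S127A, whereas Txnrd1, the cytosolic reductase that keeps thioredoxin reduced, was highest in EY without passing the test. Gclc was measured at 66.7 and 38.7 CPM for N, 44.3 and 30.8 for E, 33.5 and 28.3 for Y, and 22.3 and 23.0 for EY. Both EY libraries lay below all others, while Y1 overlapped with E2. The YAP effect was -0.76 (SE 0.19, adjusted p = 0.0472), and EY against N gave -1.22 (SE 0.29, adjusted p = 0.0313), a 2.33-fold lower level.

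Nqo1, a quinone reductase widely used as a readout of NRF2 activity, was measured at 89.7 and 63.4 CPM for N, 73.7 and 72.8 for E, 39.0 and 25.4 for Y, and 41.8 and 26.9 for EY. The libraries with and without YAP1S127A did not overlap, whereas N overlapped with E and Y with EY. The YAP effect was -1.19 (SE 0.20, adjusted p = 0.0124), and the E6-E7 effect was -0.01 (SE 0.20, adjusted p = 0.991). EY against N gave -1.20 (SE 0.30, adjusted p = 0.0342) and Y against N -1.25 (SE 0.29, adjusted p = 0.126), the latter not called.

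Txnrd1 had levels of 40.5 and 28.6 CPM for N, 33.1 and 22.6 for E, 31.3 and 42.2 for Y, and 50.8 and 72.2 for EY. Both EY libraries stood above all others and the remaining groups overlapped. EY against N gave 0.84 (SE 0.29, adjusted p = 0.0750), which was not called. Txnrd1 was the one member with an interaction of the transgenes at an unadjusted p below 0.05, at 1.07 on the log2 scale (SE 0.40, edgeR adjusted p = 0.395).

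**Figure D2:**
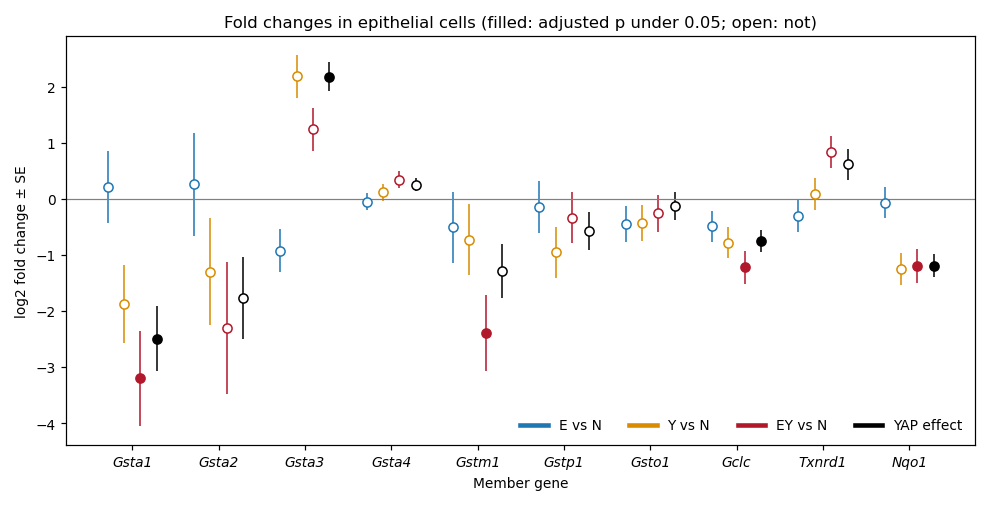
Log2 fold change with its standard error (vertical axis) of each member against N in E, Y and EY, followed by the YAP effect of the additive model, with filled points where the adjusted p was under 0.05. Gsta3 is the 1 member with a filled point above 0, and Gsta1, Gstm1, Gclc and Nqo1 have filled points below 0.

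Counted over comparisons, 4 of the 10 members were called for the YAP effect, where 8.98% of 13555 genes tested were called (5.26% higher and 3.72% lower): Gsta3 was higher, and Gsta1, Gclc and Nqo1 were lower. EY against N also called 4 members, all lower (Gsta1, Gstm1, Gclc and Nqo1), beside 18.8% of all genes (9.31% higher and 9.5% lower). Since the members were picked with results known, nothing is read from these shares. Y against N called 0 members beside 0.457% of all genes. At an unadjusted p below 0.05 were 4 members beside 1649 of 13555 genes, and DESeq2 called 2 (Gsta3 and Nqo1). E against N called 0 members beside 0.243% of all genes. At an unadjusted p below 0.05 were 1 member and 506 genes, and DESeq2 called 0 members. For the E6-E7 effect the member count was also 0, beside 0.406% of all genes. At an unadjusted p below 0.05 were 2 members and 1554 genes, and DESeq2 called 0 members. The interaction called 0 members and 0% of all genes. At an unadjusted p below 0.05 were 1 member and 1562 genes, and DESeq2 called 0 members and 89 genes. Counts of all genes called by DESeq2 are listed with the processing below. The median difference over the members was -0.67 for the YAP effect and -0.77 for EY against N, beside -0.03 and -0.05 over all genes. The 3 comparisons with N share its libraries, so their values are not independent of each other.

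Gsta3 and Nqo1 were called for the YAP effect in 19 of 19 fits, that is the reported fit, 10 other settings and the removal of each of 8 libraries in turn. Gsta1 was called in 12 of them, losing the call without N1, E1, E2, Y2, EY1 or EY2 and in the cells with more basal keratins, with an adjusted p of at most 0.108. Gclc was called in 8 and, of the fits that left out a library, only without N2, with an adjusted p of at most 0.135. The calls in EY against N rested on single libraries. Without N1 or without EY2 no member was called (5 and 25 genes of all), without N2 only Gclc, without E1 or E2 Gsta1 and Gclc, without Y1 or Y2 Gsta3 and Nqo1, and without EY1 Gsta2, Gstm1 and Nqo1. The Gstm1 difference ranged from -1.62 without EY2 to -3.75 without EY1.

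The members were also read within ranges of epithelial cells, split by whether Krt5, Krt14 and Krt15 (keratins of the basal layer) or Krt13, Krt6a and Krt4 held more UMIs. The split is a range and not a cell type: 11264 cells had more of the basal keratins and 1693 had not, and 484 lay between 45 and 55%. The median cell with fewer basal keratins held 9.58 to 31.0 UMIs of the differentiation genes Krtdap and Sbsn per 10000, against 0.398 to 4.73 in the other range, where EY2 was highest. Values in the next paragraphs are CPM without TMM scaling.

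Gsta1 and Gsta2 were concentrated in cells with fewer basal keratins. Gsta1 was at 55.5 and 41.0 CPM in that range of N1 and N2, 68.2 and 58.3 for E, 16.7 and 5.60 for Y, and 15.3 and 3.53 for EY, against 0 to 4.44 in cells with more basal keratins. The libraries with YAP1S127A were thus below the others within the range with fewer basal keratins as well. In cells with more basal keratins the libraries overlapped, with E2 at 0.724 CPM (8 UMIs) and Y1 at 0.730 (15 UMIs). In cells with fewer basal keratins, Gsta2 reached 78.1 to 112 CPM in N and E, 46.9 and 13.2 for Y, and 71.4 and 6.42 for EY. Both EY1 values rest on few molecules, 3 UMIs of Gsta1 and 14 of Gsta2.

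Gsta3 was present in both ranges, at 0.859 to 2.41 times the level in cells with fewer basal keratins relative to the rest. Cells with more basal keratins had 7.70 to 15.2 CPM without YAP1S127A and 25.3 to 91.9 with it, and cells with fewer had 13.2 to 28.7 and 29.5 to 123. Nqo1 gave 59.9 to 75.0 CPM without and 23.7 to 38.1 with YAP1S127A in the range rich in basal keratins. In the other range Nqo1 gave 76.1 to 166 without and 31.8 to 86.7 with it, where EY1 (17 UMIs) overlapped with N2. Fitted over the range rich in basal keratins alone, the YAP effect called Gsta3 (2.26) and Nqo1 (-1.14), and EY against N called Gsta3 (1.28), Gsta4 (0.45), Gclc (-1.05) and Nqo1 (-1.10).

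**Figure D3:**
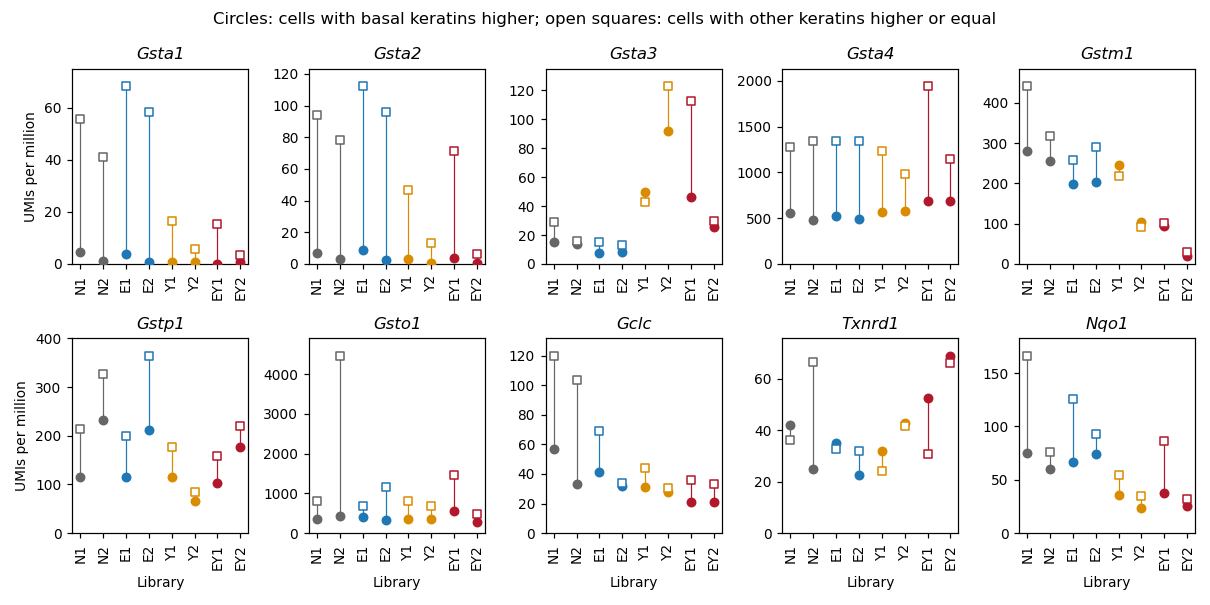
Level of each member (vertical axis, CPM without TMM scaling, starting at 0) in the 8 libraries, with circles for cells in which basal keratins were higher and open squares for the rest. Gsta1 and Gsta2 lie far higher in the squares of every library, while the circles and squares of Gsta3 lie closer to each other and are both higher in Y and EY.

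Cells holding at least 2 UMIs of Mki67, Top2a, Cdk1, Ccnb1 and Birc5 numbered 1802 of 2027 in EY2 and 97 of 170 in EY1. They numbered 1334 of 3447 in N1 and 169 of 415 in N2. This cut was not matched for depth, so the counts are not shares of cycling cells. The 5 genes summed to 813 CPM in EY2, 373 in EY1, 679 in N1 and 243 in N2. Within cells under 2 such UMIs, Gsta3 was at 7.34 to 16.8 CPM without YAP1S127A and 21.9 to 103 with it. Nqo1 in the same cells was at 53.5 to 84.4 and 23.6 to 43.8 CPM. In cells with at least 2 such UMIs, Gsta3 was at 9.85 to 20.2 and 26.0 to 92.6 CPM and Nqo1 at 71.5 to 100 and 25.0 to 46.6. The 2 sets of libraries thus stayed apart for both genes in either group of cells.

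The difference in Gsta3 was visible in the share of cells with a UMI. After each cell was thinned to 2000 UMIs, 1.78 to 3.69% of epithelial cells held Gsta3 without YAP1S127A and 5.23 to 15.7% with it, against 0.0747 to 0.541% of Ptprc-positive cells. Unthinned, the shares were 9.84 to 19.5%, 25.8 to 55.2% and 0.217 to 1.26%, at median depths of 12575 to 23570 UMIs in epithelial and 3372.5 to 10871 in Ptprc-positive cells. Gstm1 was held by 30.5 to 42.4% of thinned cells in N and E, 35.4 and 17.4% for Y, and 11.8 and 4.34% for EY, against 2.07 to 4.92% of Ptprc-positive cells. Its share in EY2 lay within the range of Ptprc-positive cells, though above the 2.25% of those cells in EY2 itself.

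Other signals moved with the groups, and their part in the results above was not tested. The 8 immune markers summed to 21.1 to 34.5 CPM in N and E, 110 and 35.2 for Y, and 1335 and 389 for EY, mostly from S100a8, with Ptprc at 0 by the choice of cells. The 5 dissociation stress genes (Fos, Jun, Egr1, Hspa1a and Atf3) summed to 3580 to 6534 CPM in N and E, 4364 and 2562 for Y, and 2461 and 2139 for EY. The 5 fibroblast markers summed to 725 to 1226 CPM in N and E and 28.3 to 805 in Y and EY, nearly all from Dcn, with Col1a1 at 0.166 to 2.04 in every library. With cells holding Tyrobp, Cd52 or Cd3e removed, the YAP effect stayed at 2.29 for Gsta3 and -1.18 for Nqo1.

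The regulators of NRF2 were mostly not called. Nfe2l2 was at 200 to 267 CPM in N and E and 161 to 233 in Y and EY, with a YAP effect of -0.27 (adjusted p = 0.222), and Keap1 gave -0.20 (adjusted p = 0.265). Of the 9 listed regulators, all tested, 1 was higher and 1 lower for the YAP effect, beside 5.26% and 3.72% of all genes. Maff, a small MAF protein, rose by 1.09 (SE 0.25, adjusted p = 0.0373), from 9.40 to 22.4 CPM in N and E to 23.0 to 40.2 in Y and EY. Bach1, the repressor, fell by 0.88 (SE 0.19, adjusted p = 0.0324) on the log2 scale, from 51.3 and 56.8 CPM in N1 and N2 and 31.0 and 35.4 in E1 and E2 to 19.3 to 27.6 in Y and EY.

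The other glutathione transferases had estimates below 0 more often than above. Of 20 listed, 18 were tested, and for the YAP effect 4 fell and 1 rose, beside 3.72% and 5.26% of all genes. An estimate below 0 was found for 16, with a median of -0.66 beside -0.03 over all genes. Since the list was chosen with results known, nothing is read from these shares. Mgst3, a microsomal transferase, was at 154 to 201 CPM in N and E, 121 and 108 for Y, and 71.5 and 29.4 for EY, and fell by 1.23 (SE 0.31, adjusted p = 0.0457). Gstm5 fell by 0.70 (SE 0.15, adjusted p = 0.0315). The gene that rose, Gstp3, was scarce, at 0.357 to 3.66 CPM, and is named only because it was the sole one. For EY against N, 6 fell and 1 rose, beside 9.5% and 9.31% of all genes, with a median of -0.90 beside -0.05.

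Of the 9 genes of glutathione synthesis and import tested of 10 listed, Gclm fell and Chac1 rose for the YAP effect. The others were not called, and over all genes 3.72% fell and 5.26% rose. Gclm, the regulatory partner of Gclc, was at 340 to 480 CPM in N and E and 148 to 269 in Y and EY, a YAP effect of -1.06 (SE 0.20, adjusted p = 0.0192). Chac1, which degrades glutathione and is also a stress-induced gene, rose by 3.28 (adjusted p = 0.0317) from 0.454 to 1.43 CPM in N and E to 1.57 to 17.1 in Y and EY, and was named after its values were seen. Slc7a11, the cystine importer, gave -0.07 (adjusted p = 0.869), and the median of the list was -0.16. Gclm lost its call without E1, E2, Y2 or EY1, and Chac1 without N1, E1, E2, Y2 or EY2. In EY against N, Gss, the second enzyme of synthesis, was also called, at -0.70 (SE 0.20, adjusted p = 0.0465).

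Of the genes of glutathione and thioredoxin reduction, 0 of 20 tested were called for the YAP effect by edgeR, beside 8.98% of all genes. At an unadjusted p below 0.05 were 6 of them, beside 4252 of 13555 genes over all. DESeq2 called 4 higher and 1 lower for the YAP effect, and its count over all genes is listed with the processing below. In EY against N 3 of 20 rose and 0 fell, beside 9.31% and 9.5% of all genes, while DESeq2 called 4 higher and 1 lower. The median was 0.30 beside -0.05 over all genes. Gpx2, a glutathione peroxidase named after its values were seen, was at 504 and 444 CPM for N, 274 and 281 for E, 251 and 60.0 for Y, and 254 and 120 for EY. Every library with YAP1S127A was below every one without it, but the EY against N difference of -1.36 (SE 0.61, adjusted p = 0.143) was not called. Prdx3, a mitochondrial peroxiredoxin, rose by 1.15 (SE 0.22, adjusted p = 0.0195) and Gpx1, a glutathione peroxidase, by 0.63 (SE 0.14, adjusted p = 0.0257). Gsr, which reduces glutathione, gave 0.56 (adjusted p = 0.159), Srxn1 0.26 (adjusted p = 0.629) and Txn1 0.14 (adjusted p = 0.490) in the same comparison. Among the 5 other oxidant defence genes tested of 6 listed, Sod2, the mitochondrial superoxide dismutase, rose by 0.79 (SE 0.13, adjusted p = 0.0145) in EY against N. The YAP effect called 0 of them, beside 8.98% of all genes, with 1 at an unadjusted p below 0.05 and 1 by DESeq2.

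Further NRF2 targets were split in direction. Of 22 listed and tested, 1 rose and 3 fell for the YAP effect, beside 5.26% and 3.72% of all genes, with a median of -0.14. Hmox1, which breaks down haem and is a target of both NRF2 and BACH1, was at 2.62 to 8.18 CPM in N and E and 13.6 and 21.9 for Y, and at 34.1 and 42.2 for EY, so that the groups with and without YAP1S127A did not overlap. It rose by 2.30 (SE 0.25, adjusted p = 0.00311) and was called in 19 of 19 fits. Ugdh, Cbr3 and Taldo1 fell, by 0.97, 0.65 and 0.39, with adjusted p of 0.0150, 0.0360 and 0.0460. In EY against N, Hmox1 (3.25), Trim16 (0.82) and Pgd (0.72) rose, and Ugdh (-1.48), Pir (-1.39) and Cbr3 (-1.19) fell, with adjusted p from 0.00784 to 0.0446. None of the EY against N calls of list genes named here was kept without N1 or without EY2. For the YAP effect, Taldo1 and Gstp3 lost their calls whichever library was left out, Ugdh lost its call without E1 or Y2, Bach1 without any but EY1, and Maff, Mgst3, Gstm5 and Cbr3 each without 6 of the 8 libraries in turn. In Y against N, E against N, the E6-E7 effect and the interaction, edgeR called 0 of the 83 list genes tested. Of all genes, 0.457%, 0.243%, 0.406% and 0% were called, in that order. At an unadjusted p below 0.05 were 20, 3, 13 and 15 of the list genes, beside 1649, 506, 1554 and 1562 of 13555 genes over all. DESeq2 called 1 regulator lower and 1 other NRF2 target higher in Y against N, 0 in E against N, 1 target higher and 1 other transferase lower for E6-E7, and 1 target higher for the interaction.

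**Figure D4:**
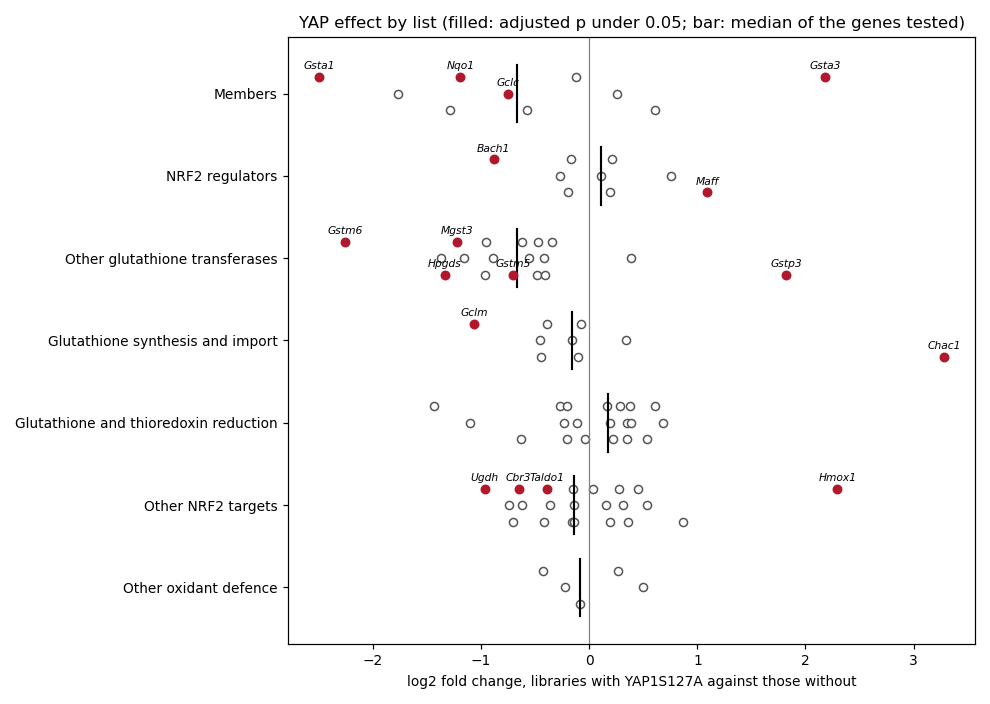
YAP effect (horizontal axis, log2 fold change between libraries with and without YAP1S127A) of every tested gene, 1 row per list, filled and named where the adjusted p was under 0.05, with a bar at the median. Hmox1, Chac1, Gsta3, Gstp3 and Maff are the filled points above 0, and the medians of the members and of the other glutathione transferases lie furthest below 0.

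The gene whose profile over the 8 libraries was most like that of a member was sought for each of Gsta3, Nqo1, Gclc and Gstm1 among 5105 genes whose mean reached 20 CPM. For Gsta3 it was Flrt2, with a mean absolute difference of 0.21 on the log2 scale after centring, against a mean deviation of 1.04 of Gsta3 itself. Flrt2 was at 5.42 to 9.65 CPM in N and E, 34.3 and 85.9 for Y, and 29.3 and 26.2 for EY. The closest genes were Ier2 for Nqo1 (0.13), Blvrb for Gclc (0.10) and Sytl1 for Gstm1 (0.23). Ier2 was at 663 and 486 CPM for N, 572 and 509 for E, 438 and 211 for Y, and 319 and 200 for EY. It was not set against the dissociation stress genes above, whose part in the Nqo1 levels was not tested.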

How the data were processed

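The authors deposited gene by cell matrices of UMI counts for 8 libraries of the tongue epithelium, made with Cell Ranger 5.0.0 and build mm10 per the file headers and labels, without normalization. The study's limits on cells were applied (1000 to 5500 genes, no more than 30000 UMIs, mitochondrial share up to 7%), and no doublet caller was run. Epithelial cells were selected on keratin and Ptprc UMIs, and their counts were summed per library, since cells are not replicates. The sums were tested with edgeR 4.0.16 (quasi-likelihood test, filterByExpr, TMM, Benjamini-Hochberg adjustment over 13555 genes, threshold 0.05) under R 4.3.3, with 1 mean per group or with additive transgene terms. All 8 libraries shared 1 estimate of the spread. Libraries summed to 2454816 to 55154619 epithelial UMIs. The study gives 2 mice per genotype, although N2 may pool animals. Each p-value sets a difference against the spread between these libraries. DESeq2 1.42.0, other scalings, filters and cell selections, and the removal of each library were the alternatives. Named list genes were those called with the largest changes (at most 3 each way per list) and a mean of at least 20 CPM in 1 group, plus Nfe2l2, Keap1, Bach1, Gclm, Slc7a11, Gsr, Hmox1, Srxn1 and Txn1. The members and lists were chosen with earlier results of these data known. Sequences came from RefSeq. The gene most like Gsta1 over the libraries is not reported here.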

Additional observations from a re-analysis of the deposited data

Results flagged for a closer look

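Cells with Ptprc UMIs and few keratin UMIs were outside every comparison above. For 3 members the lower Y library there was above both N libraries, and none of these differences was tested. With 2 libraries per group such a separation can also arise by chance. Its share over all genes was not counted, so nothing is read from the number of members. Gsta3 was at 1.52 CPM in the lower Y library against at most 1.05 in N, where it rests on 3 and 4 UMIs, and E1 (1.07) was also above N. Epithelial cells of the same libraries held 49.0 and 97.5 CPM of Gsta3 in Y against 17.6 and 14.1 in N (not TMM-scaled), and the part of free epithelial RNA in the values of Ptprc-positive cells was not tested, so they are not read as expression. Gsto1 was at 43.3 CPM against at most 38.1 in N, and E1 was at 43.8. Txnrd1 was at 125 CPM against at most 118.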

How the results depend on the processing

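Counts are of genes called, for members and then for all genes. Without a filter on low counts they were 7 and 4273 for EY against N, 7 and 1208 for Y against N, 1 and 367 for E against N, 8 and 3250 for YAP, 2 and 765 for E6-E7, and 2 and 672 for the interaction. Without upper limits on genes and UMIs, Y against N called 4 members and the YAP effect 7, and all genes numbered 6042 (EY), 1504 (Y), 66 (E), 6131 (YAP), 36 (E6-E7) and 20 (interaction). DESeq2 called 2 members in Y against N, and of all genes 457 (Y), 131 (E), 2762 (YAP), 293 (E6-E7) and 89 (interaction). In cells with more basal keratins the YAP effect called 2 members, and Y against N 33 genes. Y against N called 109 genes without gland-marker cells, and 1 member and 165 genes in cells thinned to 2000 UMIs, where the interaction called 19 genes. With keratins of at least 2%, an alternative chosen after seeing the data, Y against N called 2 members and 198 genes, and the E6-E7 effect 99 genes. Leaving out each library gave 0 to 3 members and 5 to 4061 genes for EY against N, 0 to 1 and 0 to 98 for Y, 0 to 0 and 0 to 29 for E, 2 to 4 and 324 to 1707 for YAP, 0 to 0 and 1 to 36 for E6-E7, and 0 to 0 and 0 to 30 for the interaction. The lone library left in a group was assumed to vary like the others. The cause of these changes was not tested. No sign changed in 360 alternative fits of the 20 member results with an unadjusted p below 0.05. Of the other 40 member results, 22 changed sign in some fit, in 68 of 720 alternative fits. A keratin limit of 5% was not run, as most libraries then held under 20 cells. No paired analysis was possible because the groups share no replicate numbers in the labels.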

Other observations

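In Ptprc-positive cells Nqo1 was at 1.33 to 3.49 CPM over the 8 libraries, and Gsta3 at 0.216 to 1.999. Gclc in the same cells was at 25.9 and 21.7 CPM for N, 19.1 and 25.9 for E, 14.2 and 18.9 for Y, and 10.7 and 6.30 for EY. The libraries with YAP1S127A lay below those without, by a narrow margin between Y2 and E1, and the difference was not tested. These values pool all types of leukocyte, and the study reports that the mix of immune cells differed between its groups. The part of that mix in the Gclc values was not tested.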
